A study of Mus musculus with 9 samples.

Results

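Small nucleolar RNAs (snoRNAs) and small Cajal body RNAs were taken from the array as every probe set annotated with exactly 1 gene symbol that begins with Snora, Snord or Scarna. This gave 60 of 35557 probe sets, which stand for 54 of the 19938 genes named by a single symbol. There were 20 H/ACA RNAs (Snora), 31 C/D RNAs (Snord) and 3 Cajal body RNAs (Scarna). A further 41 probe sets carry such a symbol among several and were not used. All 54 symbols were found in RefSeq (GRCm38.p6), where the RNAs are 45 to 275 bases long.

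RNA levels were measured on 9 1-colour arrays of mouse embryonic stem (ES) cells of genotype Dgcr8 -/-. All 3 groups share this genotype. Dgcr8 is needed to process primary microRNAs, so the cells lack nearly all of their own microRNAs. Cells received a synthetic let-7c mimic (3 arrays) or a synthetic miR-294 mimic (3 arrays), each a miRIDIAN mimic at 50 nM with Dharmafect 1, or were mock transfected (3 arrays). All were grown without leukaemia inhibitory factor and harvested after 12 h. The labels name no control mimic, so both mimics were set against mock transfection, and they do not say whether the cells are of 1 clone. The labels call the 3 arrays of a group biological replicates. Whether the replicates came from separate cultures is not stated beyond that, so p-values measure the spread between these samples.

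C/D RNAs guide 2′-O-methylation and H/ACA RNAs guide pseudouridylation, mostly of ribosomal RNA, and a few are needed to cut the ribosomal RNA precursor. Cajal body RNAs guide the same changes on the RNAs of the spliceosome. In mammals most of these RNAs lie in introns of other genes, many of them ribosomal protein genes, and are released from the excised intron and kept stable by a core of 4 proteins. The miR-290 family, to which miR-294 belongs, makes up the most abundant microRNAs of mouse ES cells, and the let-7 family rises as such cells differentiate.

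The mature mouse microRNAs from RefSeq (GRCm38.p6) are shown because their seeds, bases 2 to 8 and in capitals, differ between the mimics; the labels do not state the arm, and the arm usually meant by each name is given.
let-7c-5p: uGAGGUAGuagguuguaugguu
miR-294-3p: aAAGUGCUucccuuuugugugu
The let-7c sequence lies at chr15:85706616-85706637 and at chr16:77599672-77599693, both on the plus strand. The miR-294 sequence lies at chr7:3220691-3220712 on the plus strand. The snoRNAs' own sequences were not used here.

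All values are deposited log2 intensities and all differences are on the log2 scale, with the standard error after ±. The array medians over all probe sets lay between 7.36 and 7.41. A probe set was called where limma's Benjamini-Hochberg adjusted p over all 35557 probe sets was under 0.05, with no minimum fold. The 54 RNAs spanned means of 5.76 to 11.43 over the 9 arrays, with a median of 8.99. By these means, 5 RNAs (Snord118, Snord58b, Snord37, Snord38a and Snord61) were dim, under the 40th percentile of all probe sets at 6.87. For 6 RNAs there were 2 probe sets. Those of Scarna17, Snora30 and Snord118 held identical values, and those of Snora3, Snora21 and Snord58b differed by at most 0.0139, 0.109 and 0.157, so each RNA is counted once below, by its brighter probe set. Brightness is that of a probe set and does not rank the RNAs by abundance. The probes do not tell a processed small RNA from unspliced host RNA or an excised intron that holds the same bases. In such bulk samples, fewer cells of a type and less RNA per cell cannot be told apart.

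The labelled cell type was checked against its markers. The 8 ES cell markers had means of 10.46 to 13.77. The 7 feeder fibroblast markers lay between 4.46 and 8.25 and 3 of them were dim. Primitive endoderm markers lay between 6.24 and 8.19 (4 of 6 dim), trophoblast markers between 6.39 and 8.72 (2 of 5 dim) and neurectoderm markers between 8.06 and 8.86 (0 of 3 dim). Intensities have no true zero, so none is listed at 0. Dgcr8 itself differed from mock by -0.11 ± 0.05 with let-7c and by 0.08 ± 0.05 with miR-294 (limma adjusted p = 0.255 and 0.4). The deleted part of the gene is not given in the labels, so this probe set does not check the genotype.

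As a set, the RNAs were higher with miR-294 and, to a smaller extent, lower with let-7c than in mock cells, on arrays whose overall medians were nearly equal. These directions are relative to all probe sets, since intensities give no absolute amount of RNA. The median over the 54 RNAs was 8.74, 8.74 and 8.65 on the let-7c arrays, 9.39, 9.53 and 9.37 on the miR-294 arrays, and 8.92, 8.94 and 8.90 on the mock arrays. The 3 groups did not overlap in this median. The group means ran in the order let-7c, mock, miR-294 for 37 of the 54 RNAs. In 23 RNAs (42.6%) every let-7c array lay below every mock array and every miR-294 array above, an order held by 1448 probe sets (4.07%) of the table. Both mimic groups were set against the same 3 mock arrays, which ties the 2 comparisons to each other.

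**Figure D1:**
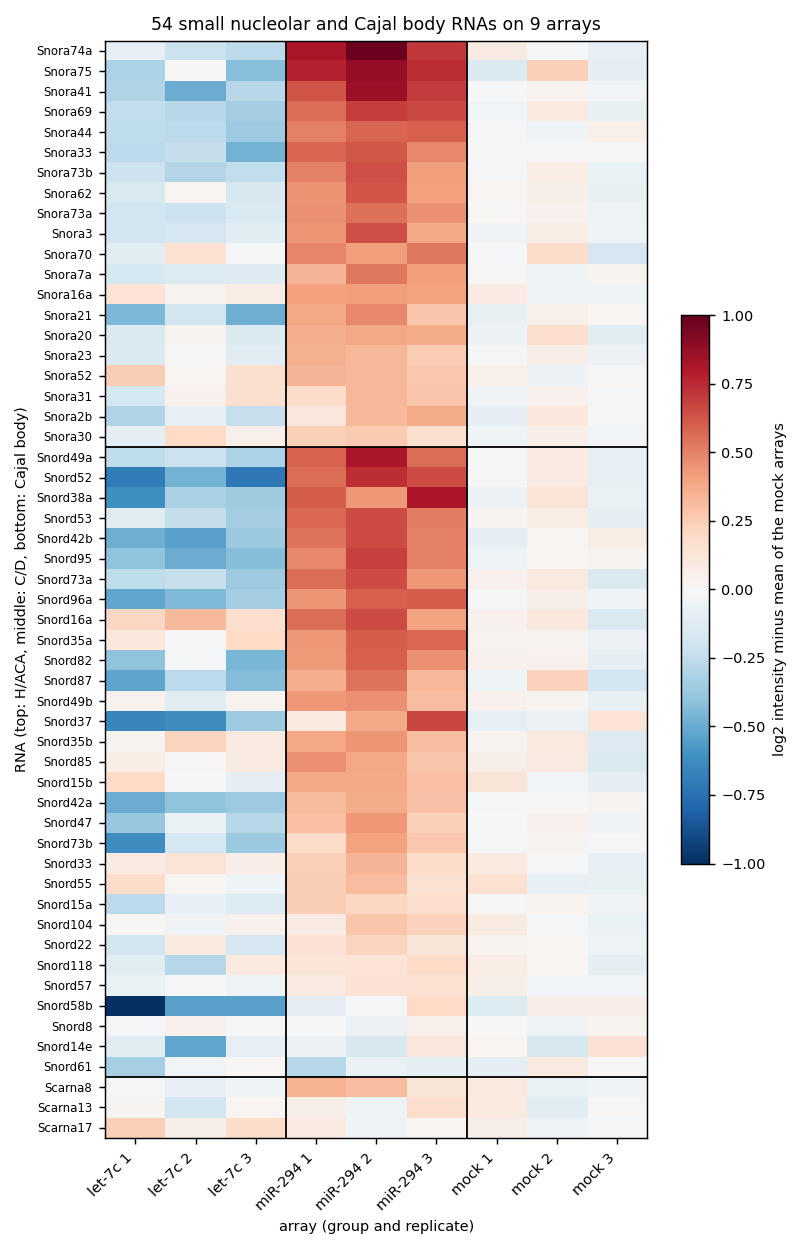
Each row is 1 of 54 RNAs and each column 1 array, grouped as let-7c, miR-294 and mock. Colour gives the log2 intensity minus the mean of the 3 mock arrays, and differences beyond 1 take the end colour. Within a block the rows run from the largest to the smallest miR-294 difference. Most rows are red on all miR-294 arrays and pale to blue on the let-7c arrays. The palest rows with miR-294 stand at the foot of the C/D block and in the Cajal body block. Snord16a, further up the C/D block, is above mock on all let-7c arrays.

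With miR-294, 38 of the 54 RNAs rose and 0 fell (limma, with 46 higher and 0 lower at an unadjusted p under 0.05). In probe sets the count was 40 of 60, where 7.76% of all probe sets were called higher, 8.13% lower and 15.9% in either direction. The median difference over the RNAs was 0.38, against 0.04 over all probe sets, with a range of -0.15 to 0.83. The largest rise was 1.78-fold and 0 RNAs reached 2-fold. The 3 miR-294 arrays lay above all 3 mock arrays in 45 RNAs, where 21.2% of all probe sets did so. A miR-294 array was the highest of the 9 in 51 RNAs, and it was replicate 2 in 34 of them. Without that array 31 of the 60 probe sets were called higher. When each of the 9 arrays was left out in turn, 28 of the 38 RNAs were called every time.

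The H/ACA RNAs rose in 17 of 20 cases, with a median difference of 0.48 and all 20 positive, where 7.76% of all probe sets rose. The largest rise was that of Snora74a (U19), which lies within the noncoding host gene Snhg4. It measured 9.67, 9.83 and 9.56 with miR-294 and 8.94, 8.84 and 8.77 in mock cells, a difference of 0.83 ± 0.08 (limma adjusted p = 0.000384). All 3 miR-294 arrays were above all 3 mock arrays. Snora75, from an intron of the nucleolin gene Ncl, measured 9.84, 9.94 and 9.80 with miR-294 and 8.92, 9.30 and 8.98 in mock cells. Its difference was 0.79 ± 0.13 (limma adjusted p = 0.00417), and the mock arrays were spread more widely than the miR-294 arrays. Snora41, within the translation elongation factor gene Eef1b2, measured 8.67, 8.90 and 8.75 with miR-294 and 8.04, 8.08 and 8.02 in mock cells. Its difference was 0.73 ± 0.08 (limma adjusted p = 0.000572), with no overlap of the groups. Snora69, within the ribosomal protein gene Rpl39, measured 8.92, 9.06 and 9.03 with miR-294 and 8.34, 8.47 and 8.29 in mock cells (difference 0.64 ± 0.06, limma adjusted p = 0.000374).

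Snora73a and Snora73b, the U17 RNAs needed to cut the precursor of 18S ribosomal RNA, lie together in the host gene Snhg3. Snora73a measured 11.19, 11.28 and 11.19 with miR-294 and 10.74, 10.77 and 10.68 in mock cells, and rose by 0.49 ± 0.05 (limma adjusted p = 0.000378). Snora73b rose by 0.52 ± 0.07 (adjusted p = 0.00133). Their sequences are close, so a shared signal between the probe sets cannot be told apart from a shared change. Snora52, among the 5 brightest with a mean of 11.07, rose by 0.31 ± 0.06 (adjusted p = 0.0128, and 0.0522 without mock replicate 2). The 3 H/ACA RNAs that missed the threshold were Snora30, Snora31 and Snora2b, at 0.22 ± 0.08, 0.27 ± 0.08 and 0.27 ± 0.09.

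Among the C/D RNAs, 20 of 31 rose with miR-294, where 7.76% of all probe sets did so, and the median difference was 0.37. Snord49a, within the noncoding gene 2410006H16Rik, measured 10.12, 10.34 and 10.08 with miR-294 and 9.53, 9.61 and 9.44 in mock cells (difference 0.65 ± 0.08, limma adjusted p = 0.000919). Snord52 measured 9.45, 9.63 and 9.55 with miR-294 and 8.89, 8.97 and 8.81 in mock cells (difference 0.65 ± 0.08, limma adjusted p = 0.00115). In both RNAs the groups stood well apart. Of the RNAs in Rpl13a, Snord35a rose by 0.54 ± 0.07 (adjusted p = 0.00126) and Snord33, whose probe set was the brightest with a mean of 11.43, by 0.26 ± 0.06 (adjusted p = 0.0262). Snord33 is no longer called under quantile normalization (adjusted p = 0.0547) or without some single arrays (up to 0.0878). The pair in the ribosomal protein gene Rps3 rose less, Snord15b by 0.35 ± 0.09 (adjusted p = 0.0251) and Snord15a by 0.21 ± 0.06 (adjusted p = 0.0393). Snord47, in an intron of Gas5, rose by 0.32 ± 0.09 (adjusted p = 0.0365). Leaving out 1 array ends the calls of Snord15a, Snord15b and Snord47, with adjusted p up to 0.118, 0.086 and 0.112.

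The other 11 C/D RNAs were not called with miR-294. Snord8 measured 9.25, 9.19 and 9.29 with miR-294 and 9.24, 9.21 and 9.28 in mock cells, so the arrays of both groups overlapped throughout (difference 0.00 ± 0.05, limma adjusted p = 0.997). Snord14e, of the U14 family that acts in 18S ribosomal RNA processing, differed by -0.03 ± 0.13 (adjusted p = 0.898). Snord22 (U22), which acts in 18S processing too, differed by 0.16 ± 0.08 (adjusted p = 0.207), and Snord104 by 0.20 ± 0.07 (adjusted p = 0.0795, and 0.0223 to 0.0458 in 5 other settings that call it). Snord118 (U8), which acts in 5.8S and 28S processing, was the only member inside no other RefSeq gene. It was dim, at 6.04, 6.04 and 6.11 with miR-294 and 5.97, 5.92 and 5.81 in mock cells (difference 0.16 ± 0.09, limma adjusted p = 0.309). Snord57, among the 5 brightest, differed by 0.13 ± 0.05 (adjusted p = 0.0944, and 0.0318 to 0.0467 in 4 other settings that call it). All miR-294 arrays lay above all mock arrays for Snord57, Snord22 and Snord118. A p that misses the threshold does not show that a level was equal.

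The 3 Cajal body RNAs gave 1 call with miR-294, where 7.76% of all probe sets rose. Scarna8 (U92), a pseudouridylation guide for U2 spliceosomal RNA, measured 7.79, 7.75 and 7.57 with miR-294 and 7.54, 7.38 and 7.41 in mock cells (difference 0.26 ± 0.07, limma adjusted p = 0.0413). The groups did not overlap, but the call is lost under quantile normalization (adjusted p = 0.0589) and without some single arrays (up to 0.133). Scarna13 measured 8.95, 8.83 and 9.06 with miR-294 and 8.98, 8.78 and 8.89 in mock cells, which overlap (difference 0.06 ± 0.09, limma adjusted p = 0.685). Scarna17, among the 5 brightest, differed by 0.02 ± 0.06 (adjusted p = 0.861). Whether the 3 classes differ from each other in their response was not tested.

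With let-7c, 11 of the 54 RNAs fell and 0 rose (limma, with 25 lower and 2 higher at an unadjusted p under 0.05). In probe sets the count was 13 of 60, where 4.76% of all probe sets were called lower, 3.5% higher and 8.26% in either direction. The median difference over the RNAs was -0.16, against 0.02 over all probe sets, with a range of -0.72 to 0.23. The 3 let-7c arrays lay below all mock arrays in 25 RNAs and above them in 1, Snord16a, where 14% and 15.2% of all probe sets did so. The count of 13 depends on single arrays and on the genes tested. It was 8, 6 and 6 without mock replicates 1, 2 and 3, where 1079, 881 and 1014 of all 35557 probe sets were called lower. After a filter on dim probe sets it was 18 of 53, where 11.1% of the probe sets tested were called lower. When 1 probe set per gene was tested after such a filter it was 20 of 50, where 1952 of 13182 were called lower.

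The falls came from 5 of 20 H/ACA RNAs, 6 of 31 C/D RNAs and 0 of 3 Cajal body RNAs, beside 4.76% of all probe sets. Snord52 measured 8.20, 8.42 and 8.18 with let-7c and 8.89, 8.97 and 8.81 in mock cells, a fall of 1.54-fold (difference -0.63 ± 0.08, limma adjusted p = 0.00332). Every let-7c array lay well below every mock array. Snord58b, the dimmest of the members, measured 4.91, 5.45 and 5.45 with let-7c and 5.85, 6.06 and 6.06 in mock cells (difference -0.72 ± 0.15, limma adjusted p = 0.023). Its call is lost without mock replicate 2 or 3 (adjusted p = 0.0856 and 0.0826) or when 6 arrays alone are fitted (0.053), and it was the only RNA called with let-7c and not with miR-294.

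Snord42a and Snord42b share the ribosomal protein gene Rpl23a. Snord42a measured 8.43, 8.52 and 8.56 with let-7c and 8.90, 8.91 and 8.95 in mock cells (difference -0.42 ± 0.05, limma adjusted p = 0.00217), and Snord42b fell by 0.47 ± 0.07 (adjusted p = 0.00591). Snord95 and Snord96a share Rack1, which encodes a scaffold protein of the small ribosomal subunit. Snord95 measured 8.38, 8.29 and 8.35 with let-7c and 8.73, 8.80 and 8.81 in mock cells (difference -0.44 ± 0.06, limma adjusted p = 0.00502), and Snord96a fell by 0.43 ± 0.07 (adjusted p = 0.00667). The groups did not overlap in any of these 4 RNAs. Of the H/ACA RNAs, Snora21, Snora41, Snora33, Snora69 and Snora44 fell, by 0.38, 0.36, 0.32, 0.29 and 0.29. These 5 calls were each lost when some single arrays were left out, with adjusted p up to 0.131, 0.0972, 0.0861, 0.0873 and 0.0511. The calls of Snord52, Snord42a, Snord42b, Snord95 and Snord96a held whichever of the 9 arrays was left out.

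The remaining RNAs that stand out by role or brightness were not called with let-7c. Snora73a and Snora73b differed by -0.18 ± 0.05 and -0.25 ± 0.07 (limma adjusted p = 0.0545 and 0.0589), and 4 other settings, filters on dim probe sets among them, call both (0.0118 to 0.0279). Snord37, within the elongation factor gene Eef2 and among the 3 dimmest, measured 5.87, 5.89 and 6.16 with let-7c and 6.44, 6.46 and 6.66 in mock cells, without overlap (difference -0.55 ± 0.14, limma adjusted p = 0.0548). Snord37 is called under quantile normalization (0.0445), with an intensity trend in the variance prior (0.0402) and when 6 arrays alone are fitted (0.0345). Snord33 and Snord35a differed by 0.09 ± 0.06 and 0.10 ± 0.07, Snord118 by -0.10 ± 0.09 and Scarna17 by 0.16 ± 0.06, none of them called. Snora74a and Snora75, which led the rises with miR-294, differed by -0.19 ± 0.08 and -0.25 ± 0.13 with let-7c (limma adjusted p = 0.225 and 0.302).

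**Figure D2:**
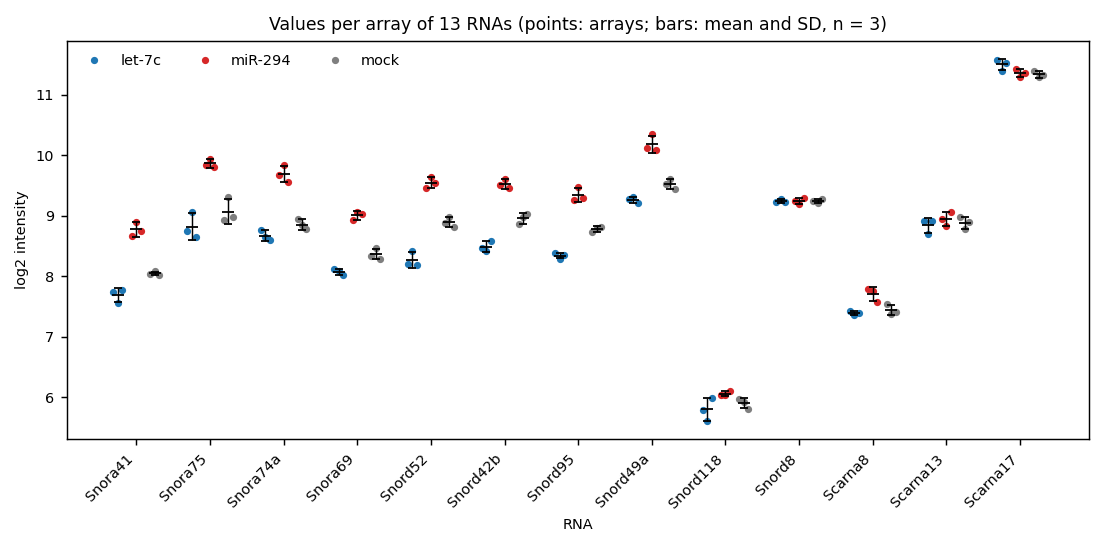
Log2 intensity of 13 RNAs on each array, with let-7c, miR-294 and mock from left to right for each RNA; black bars give the mean and SD of 3 arrays. Snord52 shows 3 separate levels, the miR-294 arrays of Snora74a and Snora75 stand above both other groups, and the points of Snord8, Scarna13 and Scarna17 lie close together.

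Set directly against miR-294, the let-7c arrays were lower in 41 of the 54 RNAs and higher in 0 (limma, with 47 lower and 0 higher at an unadjusted p under 0.05). In probe sets this was 44 of 60, where 11.4% of all probe sets were called lower and 22.4% in either direction. The median difference was -0.52, against -0.02 over all probe sets. The 3 let-7c arrays lay below all miR-294 arrays in 47 RNAs, where 19.3% of all probe sets did so. By class, 17 of 20 H/ACA RNAs (median -0.62), 23 of 31 C/D RNAs (median -0.43) and 1 of 3 Cajal body RNAs were lower.

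Snord52 had the largest difference, 8.20, 8.42 and 8.18 with let-7c and 9.45, 9.63 and 9.55 with miR-294, which is 2.43-fold lower (-1.28 ± 0.08, limma adjusted p = 2.25e-05). Snora41 followed, at 7.75, 7.55 and 7.77 with let-7c and 8.67, 8.90 and 8.75 with miR-294 (-1.09 ± 0.08, limma adjusted p = 3.79e-05). Snord38a, Snora75, Snord42b and Snora74a were lower by 2.06-, 2.06-, 2.05- and 2.02-fold. Snord38a is dim, at 5.82, 6.11 and 6.08 with let-7c and 7.04, 6.87 and 7.24 with miR-294. No array of either group crossed into the other in any of these 6 RNAs. Snord57 was lower by 0.17 ± 0.05 (adjusted p = 0.0271), a call that ends under quantile normalization (0.174). In all 3 comparisons, 11 RNAs were not called: Snora30, Snora31, Snord8, Snord14e, Snord22, Snord55, Snord61, Snord104, Snord118, Scarna13 and Scarna17. In the comparison of let-7c with miR-294, other settings call Snord22 (adjusted p down to 0.00495) and Snord104 (down to 0.0205), and Snord118 is called without let-7c replicate 3 (0.017).

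The RNAs were also split by the brightness of their probe set. Among the 40 with a mean under 10, 11 fell with let-7c (median -0.24) and 30 rose with miR-294 (median 0.41). Among the 14 with a mean of 10 or more, 0 fell with let-7c (median -0.00) and 8 rose with miR-294 (median 0.28). In the direct comparison the counts were 34 of 40 (median -0.71) and 7 of 14 (median -0.22). Over all probe sets, 4.76% fell with let-7c, 7.76% rose with miR-294 and 11.4% were lower in the direct comparison. When only probe sets with a mean above the 40th percentile were tested, 11.1% fell with let-7c, so 0 of 14 lies near the background. Snora73a and Snora73b, both among these 14, are called lower with let-7c in some other settings. The split at 10 was chosen after the values were seen and the difference was not tested. The part of the array's upper range in these smaller differences was not tested.

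RNAs of the same host gene did not always pass the test together, as within Snhg12 with let-7c. There Snora44 fell by 0.29 ± 0.05 (limma adjusted p = 0.0119), whereas Snora16a differed by 0.08 ± 0.05 (adjusted p = 0.394). Both rose with miR-294, by 0.56 ± 0.05 and 0.41 ± 0.05. Within 2410006H16Rik, Snord49a and Snord49b both rose with miR-294, by 0.65 ± 0.08 and 0.40 ± 0.06. With let-7c neither was called, and they differed from mock by -0.26 ± 0.08 and -0.01 ± 0.06 (limma adjusted p = 0.0816 and 0.94). Other settings call Snord49a with let-7c (adjusted p = 0.018 to 0.0499). The differences between such neighbours were not tested.

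By RefSeq position, with no strand at hand, 53 of the 54 RNAs lay inside another gene, 3 of them inside 2 genes. Of the 46 containing genes, 26 were measured by a probe set of their own, and they hold 30 of the RNAs. With miR-294, 21 of these 30 RNAs rose (median 0.36), while 3 of the 26 genes rose and 2 fell (median 0.02), beside 7.76% and 8.13% of all probe sets, so the genes' counts lie near the background. With let-7c, 5 of the 30 RNAs and 5 of the 26 genes fell (medians -0.18 and -0.06), beside 4.76% of all probe sets. Between let-7c and miR-294, 24 of the RNAs were lower, and 8 of the genes were lower and 1 higher (medians -0.52 and -0.08), beside 11.4% and 11% of all probe sets. Of the measured genes only Mcmdc2 was dim, with a mean of 5.86. When only probe sets with a mean above the 40th percentile were tested, 16.1% rose and 15.4% fell with miR-294 and 11.1% fell with let-7c. In the direct comparison 21% of them were lower and 19.2% higher. Values of RNAs and of genes come from different probe sets, so their levels were not set against each other.

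Ribosomal protein genes, 16 in number, hold 21 of the RNAs. Of these RNAs, 18 rose with miR-294 (median 0.43) and 6 fell with let-7c (median -0.15), beside 7.76% and 4.76% of all probe sets. The 10 such genes that were measured differed from mock by -0.02 to 0.14 with miR-294 and by -0.12 to 0.00 with let-7c, and 0 were called in either comparison (limma, with 2 and 1 at an unadjusted p under 0.05). Between let-7c and miR-294, 2 of the 10 were called, Rplp2 (-0.21 ± 0.05, limma adjusted p = 0.011) and Rps3 (-0.17 ± 0.04, adjusted p = 0.0226). Rpl23a measured 12.95, 12.86 and 12.80 with miR-294 and 12.93, 12.86 and 12.87 in mock cells, a difference of -0.01 ± 0.05, where its Snord42b rose by 0.57 ± 0.07. Of these 10 genes, 9 had a mean above 12, near the top of the array's range, and the part of that range in their small differences was not tested. The 15 RNAs inside long noncoding genes gave 10 rises with miR-294 (median 0.41) and 2 falls with let-7c (median -0.18), beside the same shares. When only probe sets with a mean above the 40th percentile were tested, 11.1% fell with let-7c, so the 2 falls lie near the background.

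In 2 cases an RNA and its containing gene were called in opposite directions with miR-294. Ipo7, which encodes a nuclear import receptor, measured 11.67, 11.70 and 11.64 with miR-294 and 12.16, 12.13 and 12.12 in mock cells (difference -0.46 ± 0.04, limma adjusted p = 0.000266). Its Snora23 measured 9.90, 9.88 and 9.80 with miR-294 and 9.54, 9.61 and 9.49 in mock cells (difference 0.31 ± 0.06, limma adjusted p = 0.00775). Haus6, a gene of the augmin complex of the spindle, fell by 0.30 ± 0.06 (limma adjusted p = 0.0144) and contains Scarna8. The 3 containing genes that rose were Kansl2 (0.48 ± 0.05), Wdr43 (0.34 ± 0.05) and Nop56 (0.32 ± 0.04). Of their RNAs, Snord53 of Wdr43 rose by 0.58 ± 0.07, and Snora2b of Kansl2 and Snord57 of Nop56 were not called. Ncl differed by 0.03 ± 0.06 with miR-294, where its Snora75 and Snord82 rose by 0.79 and 0.49. The miR-294 call of Snord82 is lost without some single arrays (limma adjusted p up to 0.0752). With let-7c, Ncl fell by 0.26 ± 0.06 (limma adjusted p = 0.0367). Snora75 and Snord82 differed by similar amounts with let-7c, -0.25 ± 0.13 and -0.29 ± 0.11, but with larger standard errors, and were not called. These containing genes were chosen after their values were seen, other than those of the RNAs named by rule.

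**Figure D3:**
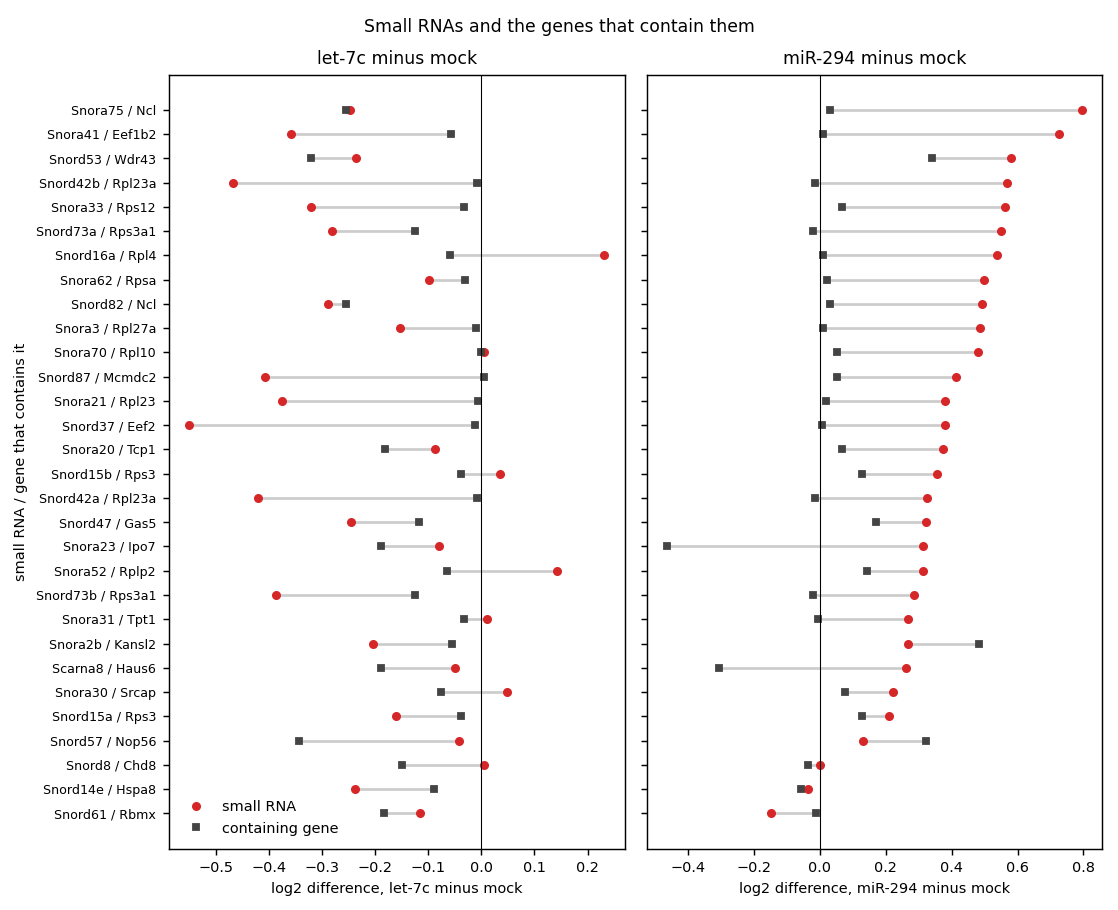
Log2 differences from mock of 30 small RNAs (red circles) and of the genes that contain them (dark squares), let-7c minus mock on the left and miR-294 minus mock on the right. With miR-294 most circles lie right of 0 while most squares lie near it, and the squares of Ipo7 and Haus6 lie left of 0.

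The hosts' promoters were searched for CACGTG, the E-box that Myc and other basic helix-loop-helix factors can bind; the motif is its own reverse complement, so 1 search covers both strands. The windows were RefSeq's, 250 bases before to 50 after the start of each gene (GRCm38.p6). The motif was in the window of 6 of 33 host genes with one (18.2%), against 8.09% of 27025 genes and 7.15% of all 32851 windows. The search was chosen after the data were seen and was not tested. Windows from 100 bases before to 25 after the start are shown, to set 3 hosts with the motif, in capitals, beside Ncl, which has none in this window.
Eef2, host of Snord37, chr10:81176531-81176655, plus strand: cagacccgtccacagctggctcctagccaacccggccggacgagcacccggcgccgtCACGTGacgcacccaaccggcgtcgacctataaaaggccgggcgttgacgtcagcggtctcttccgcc
Rpl23, host of Snora21, chr11:97782415-97782539, minus strand: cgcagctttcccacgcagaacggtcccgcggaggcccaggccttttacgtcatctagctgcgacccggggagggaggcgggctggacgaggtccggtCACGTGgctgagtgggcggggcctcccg
Wdr43, host of Snord53, chr17:71616115-71616239, plus strand: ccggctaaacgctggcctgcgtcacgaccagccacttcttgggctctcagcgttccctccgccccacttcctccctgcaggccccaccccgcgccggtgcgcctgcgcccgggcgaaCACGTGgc
Ncl, host of Snora75 and Snord82, chr1:86359431-86359555, minus strand: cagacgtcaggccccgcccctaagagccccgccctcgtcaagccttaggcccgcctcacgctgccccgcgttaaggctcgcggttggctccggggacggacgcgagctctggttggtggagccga
The motif sits upstream of the start in Eef2, across it in Rpl23 and after it in Wdr43. With miR-294, Snora21 and Snord53 rose, as did Snora75 and Snord82 of Ncl, and Snord37 of Eef2 was not called (0.38 ± 0.14, limma adjusted p = 0.119). The calls of Snora21 and Snord82 are lost without some single arrays (limma adjusted p up to 0.0785 and 0.0752). Of the 4 host genes shown, Wdr43 itself rose by 0.34 ± 0.05 with miR-294. Eef2, Rpl23 and Ncl differed by 0.01 ± 0.04, 0.02 ± 0.04 and 0.03 ± 0.06 and were not called. The motif was also in the windows of Ipo7, Rpl13a and Gm36220, which are not shown. Ipo7 fell by 0.46 ± 0.04, and Rpl13a and Gm36220 were not measured.

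The genes of the proteins that bind, assemble and carry these RNAs were taken from 5 lists of 39 genes in all. With miR-294, 22 of the 39 rose and 2 fell (median 0.22), and with let-7c 19 fell and 0 rose (median -0.17, limma with 26 lower and 0 higher at an unadjusted p under 0.05). Directly compared, let-7c was lower than miR-294 in 31 of them (median -0.42). Over all probe sets, 7.76% rose and 8.13% fell with miR-294, 4.76% fell with let-7c and 11.4% were lower in the direct comparison. None of the 39 genes was dim, and when only probe sets with a mean above the 40th percentile were tested these shares were 16.1%, 15.4%, 11.1% and 21%. All 4 genes of the H/ACA core rose with miR-294. Nop10 measured 11.20, 11.14 and 11.02 with miR-294 and 10.62, 10.46 and 10.42 in mock cells (difference 0.62 ± 0.07, limma adjusted p = 0.000762). Nhp2, Gar1 and the pseudouridine synthase gene Dkc1 rose by 0.52 ± 0.06, 0.39 ± 0.05 and 0.35 ± 0.07. With let-7c only Nop10 was called in this list, lower by 0.36 ± 0.07 (adjusted p = 0.0193); Dkc1, Gar1 and Nhp2 differed by -0.13, -0.11 and -0.06.

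Of the C/D core, Nop56, Snu13 and the methyltransferase gene Fbl rose with miR-294, by 0.32 ± 0.04, 0.32 ± 0.04 and 0.26 ± 0.04. Nop58 differed by -0.00 ± 0.05 (limma adjusted p = 0.984). With let-7c, Nop56, Nop58 and Fbl fell by 0.34 ± 0.04, 0.24 ± 0.05 and 0.18 ± 0.04, and Snu13 differed by -0.12 ± 0.04 (adjusted p = 0.131). Nop56 measured 11.55, 11.54 and 11.57 with let-7c, 12.19, 12.22 and 12.25 with miR-294, and 11.90, 11.93 and 11.87 in mock cells, 3 levels without overlap.

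Among 15 assembly and maturation genes, 9 rose and 1 fell with miR-294, and 6 fell with let-7c. Of all probe sets with a mean above the 40th percentile, 16.1% rose and 15.4% fell with miR-294, and 11.1% fell with let-7c. Znhit3, an assembly factor, rose by 0.54 ± 0.05 with miR-294, and Ncbp2, of the cap-binding complex, by 0.33 ± 0.06. Tgs1, which makes the trimethyl cap of snoRNAs that have their own genes, fell with both mimics, by 0.74 ± 0.07 with let-7c (limma adjusted p = 0.000715) and by 0.25 ± 0.07 with miR-294 (adjusted p = 0.0363). The H/ACA assembly factor Naf1 fell by 0.40 ± 0.05 with let-7c and rose by 0.22 ± 0.05 with miR-294.

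Of 12 trafficking and Cajal body genes, 8 fell with let-7c, while 5 rose and 1 fell with miR-294. Coil, whose product coilin builds Cajal bodies, measured 7.96, 8.25 and 8.17 with let-7c and 8.74, 8.99 and 8.77 in mock cells (difference -0.71 ± 0.09, limma adjusted p = 0.00353). With miR-294 Coil differed by 0.30 ± 0.09 (adjusted p = 0.0631). Gemin4 and Uspl1 fell with let-7c by 0.54 ± 0.05 and 0.42 ± 0.05, and Uspl1 fell with miR-294 too, by 0.21 ± 0.05. Nolc1, the snoRNP chaperone Nopp140, fell by 0.38 ± 0.04 with let-7c and rose by 0.38 ± 0.04 with miR-294. Of 4 genes of the trimming exosome, Exosc3 rose with miR-294 by 0.30 ± 0.06 and Mtrex fell with let-7c by 0.19 ± 0.04.

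Of 6 measured noncoding genes of the Snhg and Gas5 type, 3 rose with miR-294 and 2 fell with let-7c, beside 7.76% and 4.76% of all probe sets. Between let-7c and miR-294, 4 were lower and 1 higher, beside 11.4% and 11%. Snhg5 measured 10.24, 10.25 and 10.15 with let-7c, 11.25, 11.39 and 11.25 with miR-294, and 10.55, 10.68 and 10.51 in mock cells. It differed from mock by -0.37 ± 0.06 with let-7c and by 0.72 ± 0.06 with miR-294 (limma adjusted p = 0.0118 and 0.000244). Snhg16 fell by 0.37 ± 0.06 with let-7c and rose by 0.63 ± 0.06 with miR-294, and Snhg17 rose by 0.41 ± 0.06. By RefSeq position, Gas5, host of Snord47, is the only 1 of the 6 that contains an RNA of the set studied here. The Snhg genes that contain such RNAs were not measured. Gas5 differed by -0.12 ± 0.06 with let-7c and 0.17 ± 0.06 with miR-294 and was called in neither comparison with mock.

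Other short noncoding RNAs served as a comparison, from a list of 15 chosen after the data were seen. Of these, 0 were called with let-7c or miR-294 against mock or in the direct comparison, where 8.26%, 15.9% and 22.4% of all probe sets were called. At an unadjusted p under 0.05 (limma), 2 were higher with let-7c, and 2 were higher and 1 lower with miR-294. Among as few as 15 RNAs, a count of 0 does not show that their levels were equal. Their median differences were 0.06 with let-7c and 0.02 with miR-294, and 3 were dim. Rpph1, the RNA of RNase P, measured 13.47, 13.46 and 13.42 with miR-294 and 13.49, 13.40 and 13.43 in mock cells, a difference of 0.01 ± 0.05. Rnu3a, the C/D-type U3 RNA that the symbol rule leaves out, differed by 0.09 ± 0.07 with let-7c and 0.05 ± 0.07 with miR-294. Terc, the telomerase RNA with an H/ACA part, differed by 0.06 ± 0.10 and 0.24 ± 0.10. Several of them, such as Rpph1, Rmrp and Rn7sk, have probe sets brighter than any member, so the sets are not matched in brightness.

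**Figure D4:**
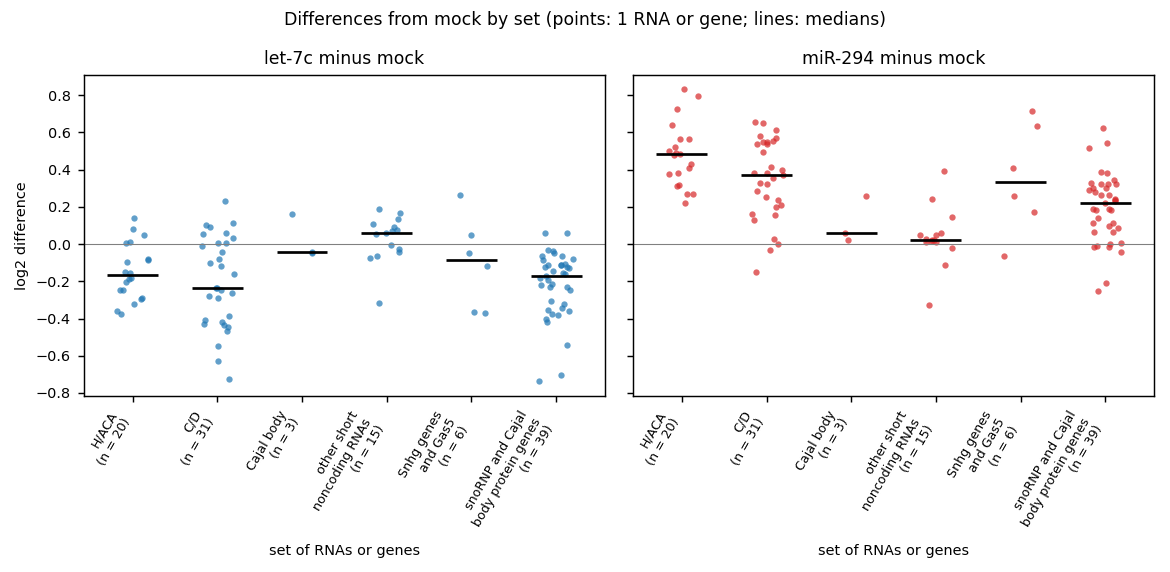
Log2 differences from mock for 6 sets, let-7c on the left and miR-294 on the right; each point is 1 RNA or gene and each black line a median. With miR-294 the H/ACA and C/D medians stand at 0.48 and 0.37, the snoRNP and Cajal body protein genes at 0.22 and the other short noncoding RNAs at 0.02.

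Markers of cell state moved alongside. With let-7c, 4 of the 8 ES cell markers fell (Nanog by 0.46 ± 0.05, Esrrb, Utf1 and Sox2), while 3 rose with miR-294 (Esrrb, Tdgf1 and Utf1), and Pou5f1 was called in neither. Of all probe sets with a mean above the 40th percentile, 11.1% fell with let-7c and 16.1% rose with miR-294. The log2 of the summed intensities of the 8 was 15.46 to 15.49 with let-7c, 15.63 to 15.70 with miR-294 and 15.55 to 15.61 in mock cells. Of the other lists, 1 of 3 neurectoderm markers (Nes) and 1 of 6 endoderm markers (Gata4) rose with let-7c, by 0.76 and 0.31. Dcn, 1 of 7 fibroblast markers, rose by 0.42 with let-7c, and Tfap2c, 1 of 5 trophoblast markers, fell by 0.31. With miR-294, 2 of 6 endoderm markers rose, Sox7 and Dab2, by 0.36 and 0.20. Dcn, Sox7 and Dab2 were dim. The other markers of these lists were not called against mock. Over all probe sets, 3.5% rose and 4.76% fell with let-7c and 7.76% rose with miR-294. For the 7 feeder markers the log2 of the summed intensities was 9.88 to 10.22 with let-7c, 9.96 to 10.18 with miR-294 and 9.84 to 10.07 in mock cells. The part of these shifts in the snoRNA differences was not tested.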

How the data were processed

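The deposited table holds 1 value for each of 35557 probe sets on 9 arrays. Per the submitters' processing notes the authors used GCRMA, which corrects background, normalizes arrays and summarises probes; neither its version nor its settings were stated. The deposited values were read as log2 intensities from their range (2.54 to 14.97), since no header states the scale, and were used without further normalization. The background correction acts most on dim probe sets, so their differences depend on it most. No pair of arrays shared over 0.0309% of its values. The number of arrays limits precision.

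Genes were named from GEO's platform annotation: 21789 probe sets had 1 symbol, 1621 several and 12147 none. RefSeq GRCm38.p6 was used for names, containment and sequences; containment ignores strand, which the table does not give. In R 4.3.3, limma 3.58.1 (lmFit, eBayes without trend) fitted all 9 arrays and all probe sets with 3 group means and 6 residual degrees of freedom; tests were two-sided and p-values Benjamini-Hochberg adjusted over all probe sets. The fit was tested on simulated data. Each gene is represented by its probe set with the highest mean. Named RNAs were, per comparison, up to 6 with the largest called rise and fall without overlap of arrays, the 5 brightest and 3 dimmest, and a fixed list of well-known members; others were added for what their values show. Host and pathway genes followed the named RNAs, all core proteins, and up to 4 called genes of each other list. The members and lists were chosen with earlier results of these data known. Alternatives covered normalization, centring, filters, gene-level testing, the variance prior, a replicate block, 6-array fits and leaving out each array.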

Additional observations from a re-analysis of the deposited data

How the results depend on the processing

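Among the 60 member probe sets, 13, 40 and 44 were called for let-7c against mock, for miR-294 against mock and for let-7c against miR-294, and 2937, 5648 and 7981 of all probe sets. Centring the arrays on the members' own median sets the members level by construction and shifts every probe set alike, so the turned signs below follow from the setting and bear in no way on the direction. It moved the median of all probe sets to 0.25, -0.46 and 0.71. It turned the members' medians to 0.0803, -0.118 and 0.208, their calls to 21, 25 and 40, and those of all probe sets to 16323, 31287 and 33843. Named RNAs with a difference opposite in sign to the shift and smaller than it turned sign. Not all of them are listed here, and none of those for let-7c minus mock. For miR-294 minus mock they included Snord58b -0.47, Snord42a -0.17, Snord33 -0.24, Scarna17 -0.47, Snord57 -0.36, Snora52 -0.18, Snord118 -0.34, Snord22 -0.33, Snora73a -0.00743, Snord104 -0.30, Snord15a -0.29, Snord15b -0.14, Snord47 -0.17, Scarna8 -0.24 and Scarna13 -0.43. For let-7c minus miR-294 they included Snord33 0.57, Snord57 0.56, Snord14e 0.53, Snora52 0.56, Snord118 0.47, Snord22 0.48, Snora73a 0.0588, Snord104 0.54, Snord35a 0.30, Snord15a 0.36, Snord15b 0.41, Snord47 0.16, Scarna8 0.42 and Scarna13 0.62. All other settings run kept the sign of the 3 medians. For let-7c minus mock, 1 probe set per gene together with a filter on dim probe sets gave 20 member calls, and either filter on dim probe sets by itself gave 18. Leaving out each array in turn gave 6 to 14, 31 to 36 and 38 to 45 member calls and 1426 to 2293, 3767 to 4660 and 6400 to 7163 calls overall. Counting each RNA once, an alternative added after the data were seen, gave 11, 38 and 41. Same-numbered arrays correlated at 0.013 to 0.172 in their deviations over all probe sets, 2 of 9 pairs over 0.1. The main fit did not take the numbers as pairs, because the labels name no block. Its p-values therefore ignore any spread that same-numbered arrays share. Over the members alone the same pairs correlated at 0.276 to 0.668 and differently numbered arrays at -0.476 to 0.011. Over all probe sets, 15 of 18 comparisons of an array with another group were highest for its own number. With the replicate block 18, 42 and 45 member probe sets were called, among them Snord16a, higher with let-7c. Of the named RNAs, the block ended the calls of Snora41 with let-7c (adjusted p = 0.06), Snord15a with miR-294 (0.0549) and Snord57 in the direct comparison (0.052), and added those of Snord37 with let-7c and miR-294 (0.012 and 0.0206), Snord49a with let-7c (0.033) and Snord22 in the direct comparison (0.0354). Few arrays and dim probe sets (7 of 60) limit what could be called.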
